A study of Rattus norvegicus with 6 samples.

Results

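The matrix metalloproteinases (MMPs) and the tissue inhibitors of metalloproteinases (TIMPs) were followed in rat renal cortex after repeated phenylbutazone dosing. They comprised 10 genes, 6 proteases (Mmp2, Mmp7, Mmp9, Mmp14, Mmp15 and Mmp28) and 4 inhibitors (Timp1 to Timp4), of 29938 genes tested. A gene was taken when the accession of a non-control array probe belonged to its rat RefSeq entry. The genes were picked with the difference between the dosed and control arrays already known, so their differences are described here without a test. All 10 were represented, by 16 probes, and all 16 probes passed the filter on dim spots. On the main probes, 9 of the 10 genes were well above background on all 6 arrays, and the exception was Mmp7. The filter asked for 3 of 6 arrays, so a probe could pass through 1 group alone.

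Male Sprague-Dawley rats, 5 weeks old when bought, received phenylbutazone at 200 mg/kg/day for 4 weeks (3 animals) or corn oil as the vehicle for the same 4 weeks (3 animals). Phenylbutazone, a non-steroidal anti-inflammatory agent, blocks both cyclooxygenases. RNA from the renal cortex, the outer part of the kidney with its glomeruli and most of its proximal tubules, was labelled with Cy3 and hybridised to 1 one-colour Agilent array per animal, and the series design calls the animals of a group biological replicates. The cortex is a mixture of cells, so fewer cells of a type and less RNA per cell cannot be told apart in any value below.

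MMPs are zinc-dependent endopeptidases that are made as inactive precursors and cleave collagens, laminins, fibronectin and many cell-surface proteins once their propeptide is removed. TIMPs bind the active site of the mature enzymes and block it. In the kidney both families act on tubular basement membrane and interstitial matrix, and they are known to change in tubular injury and fibrosis.

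RefSeq promoter windows of 300 bases, from 250 before to 50 after the start, were at hand for 7 of the 10 genes (Mmp7, Mmp15, Mmp28 and the 4 TIMPs; build GRCr8). Those of Mmp28, Timp1 and Mmp7 are shown because these genes gave the clearest lower value, the clearest higher value and the largest positive difference. Mmp28 lies at chr10:68762328-68762627, Timp1 at chrX:3771073-3771372, both on the minus strand, and Mmp7 at chr8:13132793-13133092 on the plus strand. Capitals mark matches, on both strands, to the AP-1 element TGANTCA, the AP-1 variant TGAGTAA, the PEA3 element AGGAAG, the GC box GGGCGG, the TATA box TATAAA and the STAT element TTCNNNGAA. No letter was shared by matches of different motifs.
Mmp28: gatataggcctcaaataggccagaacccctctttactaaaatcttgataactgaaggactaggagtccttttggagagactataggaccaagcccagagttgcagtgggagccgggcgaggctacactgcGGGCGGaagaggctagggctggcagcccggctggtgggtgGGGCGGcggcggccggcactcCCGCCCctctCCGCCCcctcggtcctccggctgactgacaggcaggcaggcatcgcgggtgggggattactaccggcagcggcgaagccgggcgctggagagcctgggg
Timp1: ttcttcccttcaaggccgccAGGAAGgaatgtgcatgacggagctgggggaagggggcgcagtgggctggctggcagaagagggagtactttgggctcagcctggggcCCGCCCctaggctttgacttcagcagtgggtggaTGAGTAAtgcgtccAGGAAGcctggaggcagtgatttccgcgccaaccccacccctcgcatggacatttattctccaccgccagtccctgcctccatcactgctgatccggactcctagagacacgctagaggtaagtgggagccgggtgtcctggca
Mmp7: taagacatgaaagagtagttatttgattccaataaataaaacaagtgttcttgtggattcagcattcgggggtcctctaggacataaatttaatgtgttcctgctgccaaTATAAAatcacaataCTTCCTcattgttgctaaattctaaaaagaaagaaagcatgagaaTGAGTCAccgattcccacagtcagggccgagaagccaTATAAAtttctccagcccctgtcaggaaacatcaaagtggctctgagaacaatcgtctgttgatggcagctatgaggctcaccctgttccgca
The Mmp28 window held 4 GC boxes and no other motif searched, in a stretch of 65% G and C. The Timp1 window held 1 TGAGTAA at -108, 2 PEA3 elements at -230 and -94 and 1 GC box at -142, counted from the start to the first base of the match. The Mmp7 window, 41% G and C, held an AP-1 element at -80, a PEA3 element at -125 and TATA boxes at -140 and -43, and among the 7 windows it alone held TGANTCA or TATAAA. Over all 33469 windows of that length in the table, the shares with at least 1 match were 7.33% for TGANTCA, 2.90% for TGAGTAA, 34.5% for AGGAAG, 33.1% for GGGCGG, 14.2% for TATAAA and 8.87% for TTCNNNGAA. In the other 4 windows the matches were 3 GC boxes for Timp3, 1 each for Timp2 and Mmp15, and 1 PEA3 element for Timp4. A match is a run of letters and not a measured site.

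Across the series, each array had 65.2% to 68.4% of its 61537 non-control probes well above background. The number of arrays limits the precision of every value. All 6 markers of the proximal tubule were well above background on enough arrays to be tested, with a summed level of 1104 to 1164 times the array's 75th percentile in phenylbutazone and 1087 to 1141 times in vehicle. The phenylbutazone arrays 1 to 3 and vehicle array 3 shared slide 2, while vehicle arrays 1 and 2 made up slide 1, which was scanned separately. On the first principal component of all genes (29.4% of the variance) the phenylbutazone arrays lay at 1.10 to 18.9, and vehicle array 3 stood apart at 52.3, far from vehicle arrays 1 and 2 at -41.2 and -36.3. On the second component (25.7% of the variance) all vehicle arrays lay at 20.0 to 40.5 and all phenylbutazone arrays at -39.8 to -12.1. Because vehicle array 3 differed from the other vehicle arrays in slide and on the first component, each difference of the 10 genes is given in 2 further ways. One is against vehicle array 3 alone, which is the comparison within slide 2. The other is without vehicle array 3, where slide and treatment cannot be told apart. For the related genes both values are given where either one turns the direction or moves the difference by more than 1.5 times. No gene passed limma's test at an adjusted p under 0.05 (0 of 29938, 0%), while 3657 (12.2%) had an unadjusted p under 0.05. The 2 groups did not overlap in 21.5% of all genes, 12.1% with phenylbutazone higher and 9.39% with phenylbutazone lower. Of the 10 MMP and TIMP genes 2 had all phenylbutazone values above all vehicle values and 1 had them all below. Since the genes were picked on this contrast, nothing is read from that count. Levels are log2 intensities relative to the array's 75th percentile, and differences are phenylbutazone minus vehicle on that log2 scale with the limma standard error.

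**Figure D1:**
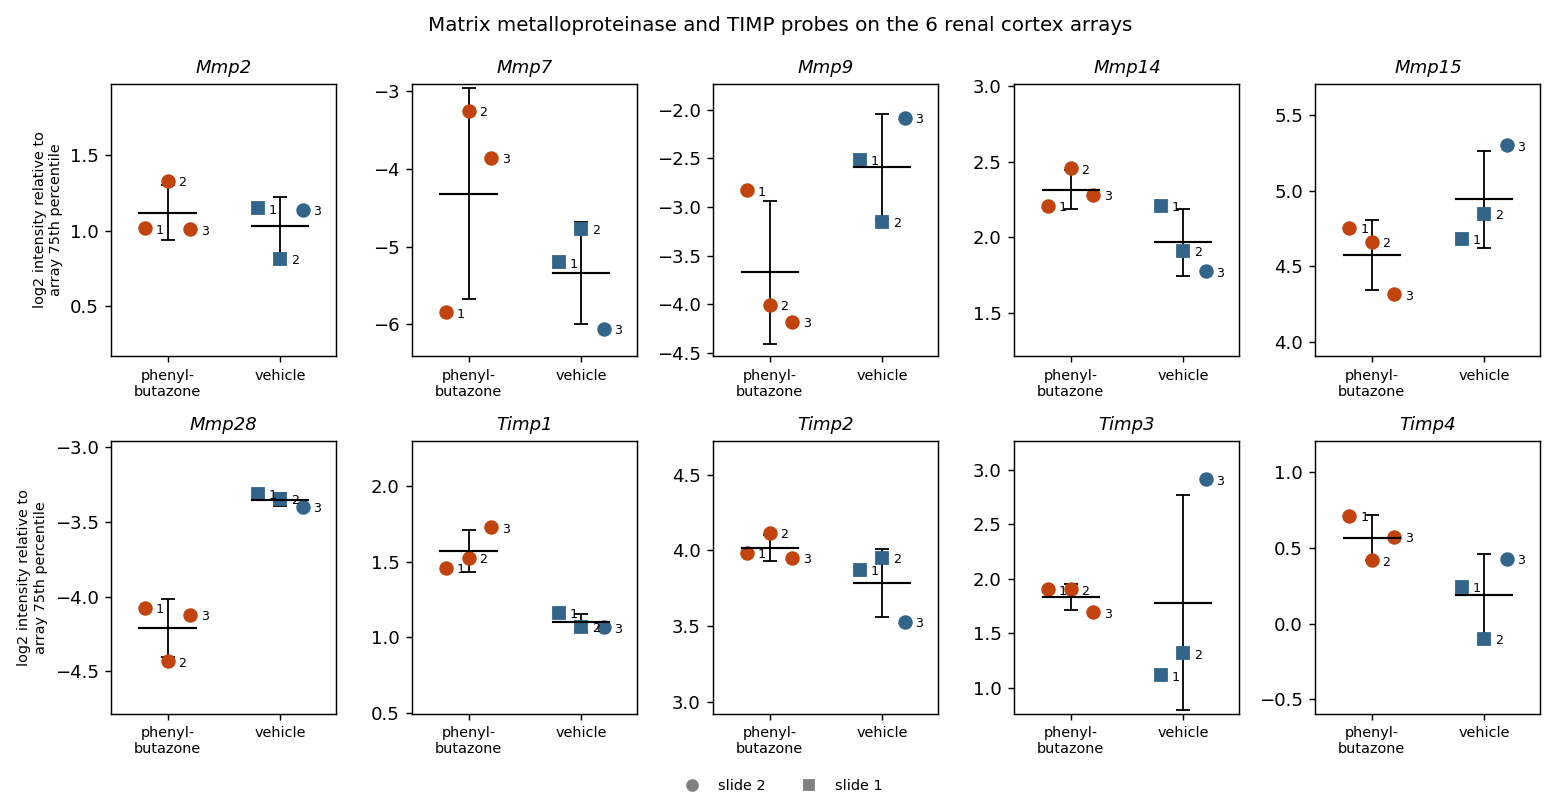
Levels of the 6 MMP and 4 TIMP genes on each array, as log2 intensity relative to the array's 75th percentile; points are animals (numbered by replicate, circles for slide 2 and squares for slide 1), horizontal lines the means and bars the SD (n = 3 per group), and each panel has its own vertical range. Mmp28 sits at -4.43 to -4.07 in phenylbutazone and -3.40 to -3.31 in vehicle, whereas for Timp3 vehicle array 3 lies at 2.91, above all other arrays.

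Among the proteases the clearest separation was that of Mmp28, which encodes epilysin, a secreted MMP of epithelia. Its level was -4.07, -4.43 and -4.12 on phenylbutazone arrays 1, 2 and 3 and -3.31, -3.34 and -3.40 on vehicle arrays 1, 2 and 3. All phenylbutazone values were lower than all vehicle values, with 0.67 log2 units between the nearest ones, and the vehicle values were nearly equal on both slides. The mean level was -4.21 ± 0.19 in phenylbutazone and -3.35 ± 0.045 in vehicle (SD, n = 3 each), a difference of -0.86 ± 0.13, or 1.81-fold lower with phenylbutazone. The difference was -0.81 against vehicle array 3 alone and -0.88 without that array. The probe was dim, at 44.5 to 98.7 intensity units, and under normexp background correction with an offset of 50 the difference was -0.41, still without overlap.

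Mmp9 encodes gelatinase B, a protease of neutrophils, macrophages and injured epithelia that cleaves denatured and basement membrane collagen. Its level was -2.83, -4.01 and -4.18 on the phenylbutazone arrays and -2.52, -3.16 and -2.08 on the vehicle arrays. Phenylbutazone 2 and 3 were the lowest of the 6 animals, but phenylbutazone 1 stood above vehicle 2, so the groups overlapped. The means were -3.67 ± 0.74 and -2.58 ± 0.54 (SD, n = 3 each) for phenylbutazone and vehicle, a difference of -1.09 ± 0.43 (2.13-fold lower), the lowest of the 10 genes. It was -1.59 within slide 2, -0.84 without vehicle array 3 and -0.57 under normexp. The probe was dim, at 53.6 to 217.6 intensity units over the 6 arrays.

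The cells that make gelatinase B were looked at through their markers. Of 7 neutrophil genes 4 were tested, with Elane and Cxcr2 too dim, and their summed level was 0.50 to 0.94 times the array's 75th percentile in phenylbutazone and 0.37 to 0.88 times in vehicle. Of 8 macrophage genes 7 were tested, Cd163 being too dim, with a summed level between 16.6 and 19.3 in phenylbutazone and between 17.1 and 18.9 in vehicle. The ranges of both sums overlapped between the groups. By direction, 3 neutrophil differences were above 0 and 1 below, and 2 macrophage differences were above 0 and 5 below. In each list the groups did not overlap for 1 gene, against 21.5% of all genes: Csf3r, higher at 0.34, and C1qc, lower at -0.32. The part of these cells in the Mmp9 values was not tested.

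Mmp7 encodes matrilysin, a small secreted MMP without a hemopexin domain that tubular epithelium makes after injury. Its level was -5.84, -3.25 and -3.86 on the phenylbutazone arrays and -5.20, -4.77 and -6.05 on the vehicle arrays. Phenylbutazone 2 and 3 stood above every vehicle animal, while phenylbutazone 1 lay below vehicle 1 and 2. The probe was well above background on 2 of 3 arrays in each group, with intensities of 13.9 to 100.8 over the 6 arrays. The means were -4.32 ± 1.36 in phenylbutazone and -5.34 ± 0.66 in vehicle (SD, n = 3 each), and the difference of 1.02 ± 0.70, the highest of the 10 genes, was less than the spread among the phenylbutazone animals. It was 1.74 within slide 2 and 0.67 without vehicle array 3, and 1.79 without phenylbutazone array 1 and 0.49 without phenylbutazone array 2. Under normexp it was 0.44, so its size moved with single animals and with the background correction.

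The membrane-type proteases Mmp14 and Mmp15 stood on opposite sides of 0. Mmp14, or MT1-MMP, is a collagenase at the cell surface that activates the Mmp2 precursor. Its level was 2.21, 2.46 and 2.28 on the phenylbutazone arrays and 2.21, 1.91 and 1.78 on the vehicle arrays. Phenylbutazone 1 and vehicle 1, equal to 2 decimals, met at the border of the groups, and the other phenylbutazone animals stood above all vehicle animals. The difference was 0.35 ± 0.15 (1.27-fold higher; mean levels 2.32 ± 0.13 and 1.97 ± 0.22 in phenylbutazone and vehicle, SD, n = 3 each). It was 0.54 within slide 2 and 0.25 without vehicle array 3. A second Mmp14 probe gave 0.33 ± 0.16 and the same order of the vehicle animals, with 0.56 within slide 2 and 0.21 without vehicle array 3.

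Mmp15, or MT2-MMP, is a related membrane-anchored protease. Its main probe, at 19377 to 36322 intensity units, had levels of 4.75, 4.66 and 4.31 on the phenylbutazone arrays and 4.68, 4.85 and 5.30 on the vehicle arrays. The values overlapped, with vehicle 3 the highest and phenylbutazone 3 the lowest of the 6. The difference was -0.37 ± 0.20, and it was -0.72 within slide 2 and -0.19 without vehicle array 3. The other Mmp15 probes, at 54.4 to 88.8 intensity units, gave -0.0061 ± 0.20 and -0.11 ± 0.17. Within slide 2 they stood below 0 like the main probe, at -0.37 and -0.39, and without vehicle array 3 above 0, at 0.17 and 0.037.

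Mmp2 encodes gelatinase A, which fibroblasts and other interstitial cells secrete. Its level was 1.02, 1.33 and 1.01 on the phenylbutazone arrays and 1.15, 0.81 and 1.14 on the vehicle arrays. The values were interleaved, with a difference of 0.084 ± 0.15 that was -0.020 within slide 2 and 0.14 without vehicle array 3. The second Mmp2 probe stood at -0.16 ± 0.14, on the other side of 0, and neither difference was much beyond its standard error.

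**Figure D2:**
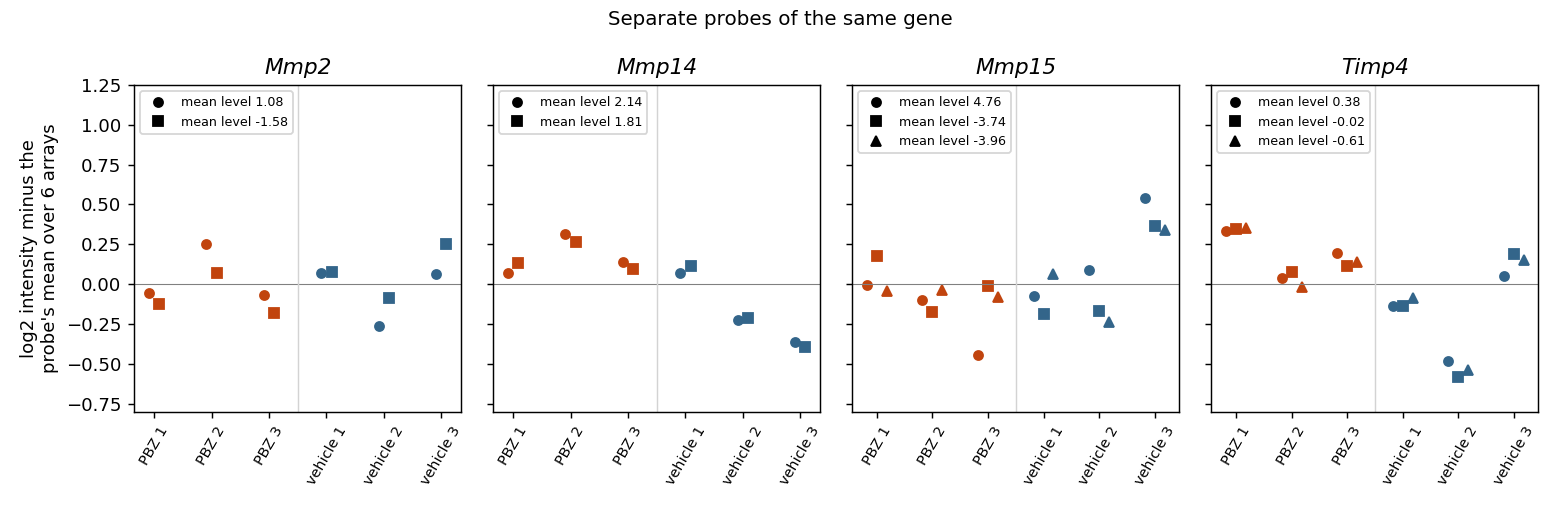
Genes with more than 1 probe; each point is a probe's log2 intensity on 1 array (PBZ, phenylbutazone, left of vehicle) minus that probe's mean over the 6 arrays, and the legend gives that mean relative to the array's 75th percentile. The Mmp14 and Timp4 probes follow each other array by array, whereas the brightest Mmp15 probe lies below the dimmer ones on phenylbutazone array 3 and above them on vehicle arrays 2 and 3.

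Among the inhibitors Timp1 separated the groups. It encodes a secreted TIMP that binds both active MMPs and the Mmp9 precursor and is induced in injured and fibrotic kidney. Its level was 1.46, 1.52 and 1.73 on the phenylbutazone arrays and 1.16, 1.07 and 1.06 on the vehicle arrays. Every phenylbutazone animal was above every vehicle animal, by at least 0.30 log2 units, and the vehicle values spanned 0.10 over both slides. The mean level was 1.57 ± 0.14 in phenylbutazone and 1.10 ± 0.055 in vehicle (SD, n = 3 each), a difference of 0.47 ± 0.11, or 1.39-fold higher with phenylbutazone. It was 0.51 within slide 2, 0.46 without vehicle array 3 and 0.39 to 0.53 over all leave-one-out values. Among 9 genes of tubular injury 8 were tested (Spp1, Lcn2 and Cd44 also stand in the lists of related genes below), and their summed level was 68.4 to 104.7 times the array's 75th percentile in phenylbutazone and 28.5 to 35.2 times in vehicle, with 6 differences above 0 and 2 below. Those below 0 were Havcr1 (-0.19) and Krt8 (-0.077), and the sum rests mostly on Spp1, Krt18 and Clu, the genes of highest level. No gene of that list passed limma's test (lowest adjusted p = 0.208, with 5 of the 8 at an unadjusted p under 0.05, against 12.2% of all genes). The list was written with earlier results of these data known, so nothing is read from that share. The part of these injury genes in the Timp1 values was not tested.

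Timp2 encodes a secreted inhibitor that also serves, together with Mmp14, in the activation of the Mmp2 precursor. Its level was 3.98, 4.12 and 3.95 on the phenylbutazone arrays and 3.87, 3.95 and 3.53 on the vehicle arrays. The groups lay apart by only 0.0029 log2 units, between phenylbutazone 3 and vehicle 2, and they overlapped after quantile normalization and after normexp. The difference was 0.23 ± 0.14 (1.18-fold higher), 0.49 within slide 2 and 0.11 without vehicle array 3.

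Timp3 encodes the inhibitor that stays bound to the extracellular matrix and also blocks Adam17. Its level was 1.90, 1.90 and 1.69 on the phenylbutazone arrays and 1.11, 1.31 and 2.91 on the vehicle arrays. Vehicle 3 was the highest and vehicle 1 and 2 were the lowest of all 6 animals, with every phenylbutazone animal between them. The means were 1.83 ± 0.12 in phenylbutazone and 1.78 ± 0.99 in vehicle (SD, n = 3 each), with a difference of 0.052 ± 0.47. This average had no stable direction, being -1.08 within slide 2 and 0.62 without vehicle array 3. Vehicle array 3 exceeded the mean of vehicle 1 and 2 by 1.70 log2 units, the widest such gap among the 10 genes. That array was also the lowest in the 3 thick ascending limb markers, whose summed level was 296 to 399 times the array's 75th percentile in phenylbutazone and 179 (array 3) to 300.4 times in vehicle. This was not particular to these markers. Vehicle array 3 was also the lowest for the endothelial sum (24.4, other arrays 33.3 to 35.6) and the intercalated cell sum (57.7, other arrays 72.6 to 101.9). The endothelial sum rests mostly on Kdr and Pecam1, which were lowest on vehicle array 3, at 3.95 and 2.02. Emcn, Tek and Cdh5 were instead highest on that array, at 1.94, -1.42 and -1.52, and Flt1 lay between. The endothelial genes therefore had no common direction there. The part of slide and of any of these markers in the Timp3 values was not tested.

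Timp4 encodes a TIMP best known from the heart. Its level was 0.71, 0.42 and 0.57 on the phenylbutazone arrays and 0.24, -0.10 and 0.43 on the vehicle arrays. The groups touched between phenylbutazone 2 and vehicle 3, while phenylbutazone 1 and 3 stood above all vehicle animals. The difference was 0.38 ± 0.17 (1.30-fold higher), and the other probes gave 0.36 ± 0.22 and 0.31 ± 0.21. Within slide 2 it was 0.14, and on the other probes -0.012 and 0.0067. Without vehicle array 3 it was 0.50, and on the other probes 0.54 and 0.47, so the size depended on which vehicle animals were set against phenylbutazone.

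**Figure D3:**
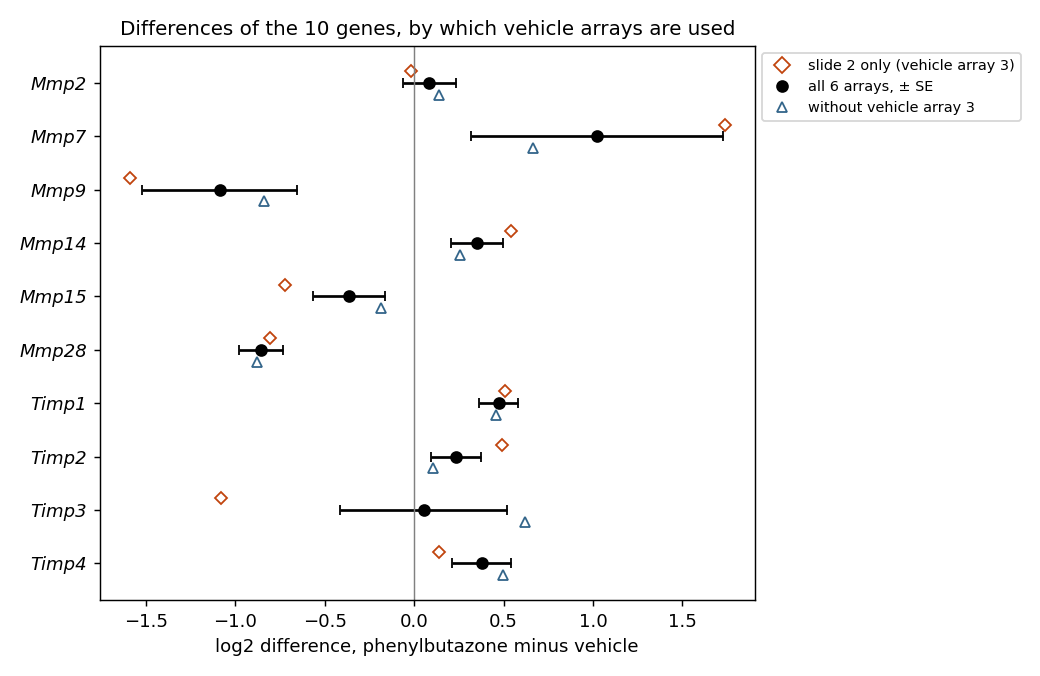
Difference in log2 level, phenylbutazone minus vehicle, for each gene; filled circles use all 6 arrays with the standard error (n = 3 per group), open diamonds only slide 2 (3 phenylbutazone arrays against vehicle array 3) and open triangles all arrays but vehicle array 3. Mmp28 and Timp1 keep nearly the same value in the 3 settings, while Timp3 runs from -1.08 to 0.62.

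Taking the 10 genes as a group, 7 differences were above 0 and 3 below, with a median of 0.16 and a range of -1.09 to 1.02. Over all 29938 genes the median difference was 0.015, with quartiles of -0.16 and 0.17. All 4 inhibitors stood above 0, and the proteases stood above 0 for Mmp2, Mmp7 and Mmp14 and below 0 for Mmp9, Mmp15 and Mmp28. The spread within groups was uneven, with SDs of 0.087 (Timp2) to 1.36 (Mmp7) in phenylbutazone and 0.045 (Mmp28) to 0.99 (Timp3) in vehicle.

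Related genes were read from 5 lists with 149 genes, of which 99 were tested; 0 of them had a limma adjusted p under 0.05 over all genes, and 12 (12.1%) had an unadjusted p under 0.05, against 12.2% of all genes. In 16.2% of the 99 genes the groups did not overlap, against 21.5% of all genes. Of 16 further MMPs 8 were tested, 3 with a difference above 0 and 5 below, and the median was -0.086. Mmp24, a membrane-type MMP best known from the nervous system, stood at 0.52 ± 0.13 (limma adjusted p = 0.290), with levels of -1.35, -1.02 and -1.44 in phenylbutazone and -1.81, -1.79 and -1.76 in vehicle, all phenylbutazone values higher. The collagenase gene Mmp13 stood at -0.33 ± 0.19, the membrane-type Mmp16 at -0.29 ± 0.22 and stromelysin-3 (Mmp11) at 0.16 ± 0.12. All 3 turned direction within slide 2, where Mmp13 was 0.0055, Mmp16 0.21 and Mmp11 -0.049, and they were -0.50, -0.54 and 0.27 without vehicle array 3. The stromelysin genes Mmp3 and Mmp10, neutrophil collagenase Mmp8, and Mmp1, Mmp20, Mmp21 and Mmp27 were too dim to be tested.

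Of 33 ADAM, ADAMTS and astacin proteases 17 were tested, with 7 differences above 0, 10 below and a median of -0.050. The versican-cleaving Adamts15 stood at 0.46 ± 0.14 and Adamts9 at 0.39 ± 0.19, whereas Adamts10, a protease of fibrillin microfibrils, stood at -0.71 ± 0.27 and Adamts18 at -0.56 ± 0.27 (limma adjusted p 0.322 to 0.466). Within slide 2 and without vehicle array 3, Adamts15 was 0.71 and 0.34, Adamts9 0.21 and 0.49, Adamts10 -0.47 and -0.83, and Adamts18 0.042 and -0.86, the last with a turn of direction. Adam17, the tumour necrosis factor convertase that Timp3 inhibits, stood at -0.15 ± 0.13, with -0.35 within slide 2 and -0.050 without vehicle array 3. Of 27 activators, inhibitors and partners 21 were tested, with 10 above 0, 11 below and a median of -0.036. Lcn2, whose product binds gelatinase B, stood at 0.94 ± 0.22 and the hyaluronan receptor gene Cd44, which can hold Mmp9 at the cell surface, at 0.60 ± 0.24, although other Cd44 probes gave 0.19 and 0.11. Plg, which encodes plasminogen, stood at -0.39 ± 0.12 and the protease inhibitor gene Serpine2 at 0.25 ± 0.16 (limma adjusted p 0.275 to 0.572 for these 4). Serpine2 was 0.57 within slide 2 and 0.087 without vehicle array 3. The Mmp14-activating convertase gene Furin (-0.072 ± 0.098), the MMP inducer gene Bsg (-0.16 ± 0.12), the plasminogen activator gene Plau (0.054 ± 0.17) and Cd63, a cell-surface binding partner of Timp1 (-0.085 ± 0.10), had limma adjusted p values of 0.639 to 0.920. Another Furin probe gave 0.15 ± 0.12, on the other side of 0. Within slide 2 Bsg was -0.36, and Furin, Plau and Cd63 turned direction at 0.047, -0.20 and 0.020. Without vehicle array 3 Bsg was -0.054, Furin -0.13, Plau 0.18 and Cd63 -0.14.

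Of 43 matrix and basement membrane substrates 29 were tested, 19 above 0 and 10 below, with a median of 0.045. Spp1, which encodes osteopontin, a glycoprotein that MMPs cleave, stood at 2.02 ± 0.36 (limma adjusted p = 0.208). Col4a4, a collagen IV chain of the glomerular basement membrane, stood at 0.35 ± 0.12 and the laminin gene Lamc3 at -0.83 ± 0.30, although another Lamc3 probe gave 0.14. Lamc3 was -1.42 within slide 2 and -0.54 without vehicle array 3. Col4a1, a collagen IV chain of all basement membranes, stood at 0.34 ± 0.15 (0.64 within slide 2 and 0.19 without vehicle array 3), but its other probes gave -0.56, -0.048 and 0.065 and so no common direction. Of 30 regulators of MMP and TIMP transcription 24 were tested, 12 above 0 and 12 below, with a median of 0.014. The PEA3 factor gene Etv4 stood at -0.52 ± 0.16, the cytokine gene Osm at -0.28 ± 0.11, and the AP-1 subunit genes Fosb and Junb at -0.21 ± 0.10 and 0.34 ± 0.17 (limma adjusted p 0.320 to 0.476). Fosb was -0.11 within slide 2 and -0.26 without vehicle array 3.

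**Figure D4:**
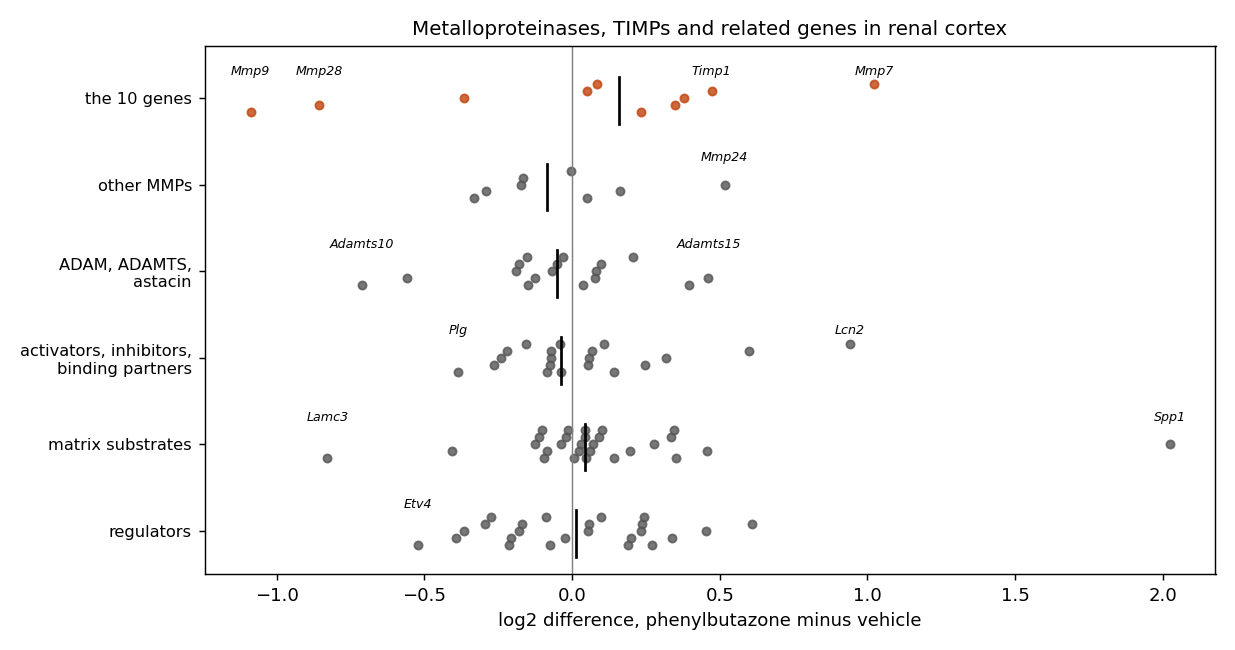
Difference in log2 level, phenylbutazone minus vehicle, of the 10 MMP and TIMP genes (top) and of the 5 lists of related genes; each point is a gene, black lines are medians over all tested genes of a list and some genes are named; 2 genes are not drawn. Most related genes lie close to 0, with Spp1 at 2.02 far to the right.

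Genes of the most similar profile over the 6 arrays were found by the root mean square distance between values centred on each gene's own mean. For Mmp28 they were Wscd2 (distance 0.068 log2 units, Pearson's r 0.99), Ihh, which encodes the signal Indian hedgehog (0.10, r 0.99), and Otor (0.12, r 0.98), with differences of -0.77, -1.01 and -0.67. For Timp1 they were Plec, which encodes the cytoskeletal linker plectin (0.029, r 1.00), Dipk1a (0.046, r 0.98) and the autophagy gene Gabarapl1 (0.049, r 0.98), with differences of 0.50, 0.47 and 0.43. These are descriptions over the same 6 arrays, chosen among all named genes. Other tested probes stood nearer to 0 for Wscd2 (-0.054), Plec (-0.085 and 0.21) and Gabarapl1 (0.18), and the 4 other Ihh probes ranged from -1.09 to -0.21.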

How the data were processed

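Feature Extraction 10.7 (per the submitters' processing notes) made the deposited processed intensity of each spot, background-subtracted and on a linear scale, with no normalization between arrays per the file headers. The deposited value table holds a ratio: against the scanner values it was the intensity over the array's 75th percentile, to within 0.023 log2 units for probes above 100. Its column medians were 0.105 to 0.110. The probe design names the build rn4, whose coordinates were not used.

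Control spots (1439 of 62976) and 40 outlier-flagged probes were dropped; none was saturated. From the deposited intensities, log2 values were taken and each array's 75th percentile subtracted. The filter asked for 3 of 6 arrays well above background, which kept 41006 probes and left 20491 dim ones untested. Accessions without version were matched to RefSeq (GRCr8, names only), which named 45.8% of the probes. The other probes keep their accession. A gene was its tested probe of highest mean level. Differences were fitted with limma 3.58.1 (lmFit and eBayes, two-sided) in R 4.3.3, with Benjamini-Hochberg adjustment over all genes, and the fit was tested on simulated data. Promoters and figures used Python 3.11.15.

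The 10 genes and all gene lists were chosen with earlier results of these data known. The 10 genes, the 4 genes of smallest p in each list, a set of fixed genes (Reck, Bsg, Furin, Plau, Cd63, Adam17, Col4a1, Lcn2 and Spp1, of which Reck has no named probe here) and the 3 nearest profiles to Mmp28 and Timp1, among genes whose range was at least 0.5 times theirs, are named. Some genes that this rule names are not reported here. Marker genes and genes too dim to test are named in addition. The other marker lists (fibroblast and pericyte, lymphocyte, endothelial, smooth muscle, podocyte, distal tubule, collecting duct and erythrocyte) had 0 genes past limma's test (lowest adjusted p = 0.296). Alternatives were other scalings, normexp (with the median intensity of a spot, as no mean is in the files used here), the deposited ratios, other filters, an intensity trend, a fixed or a random block for slide, the arrays of slide 2, a block for the replicate number, single probes and leaving out each animal. Within slide 2 the lone vehicle array was taken to have the same spread as the phenylbutazone group. Same-numbered animals did not deviate together (correlations of -0.030, 0.011 and -0.074), so the numbers were not taken as pairs.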

Additional observations from a re-analysis of the deposited data

How the results depend on the processing

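The count of genes with a limma adjusted p under 0.05, 0 with all arrays, was 1 after quantile normalization, 2 after normexp, 8 with an intensity trend and 1 with slide as a random block, and 0 with the median scaling, the deposited ratios, either filter, slide as a fixed block, slide 2 alone or every probe on its own. Leaving out single animals gave 0 to 814 genes, the highest without vehicle replicate 3, where slide and treatment cannot be told apart. Among the related genes 0 passed, except for 1 with the trend and without vehicle replicate 3 (0 to 1 when leaving out single animals). With the replicate number as a block 0 genes passed, 2695 had an unadjusted p under 0.05 against 3657 without the block, and no phenylbutazone array correlated best with the vehicle array of its number. The 10 MMP and TIMP differences gave 175 values under the alternatives, of which 161 moved by less than the SD within groups and 10 changed sign, all of Mmp2 (-0.16 to 0.15) and Timp3 (-1.08 to 0.62). These values are not separate checks. Both filters, the intensity trend and the replicate block left every fitted difference as it was. The fixed block for slide gave the same differences as slide 2 alone. The SD was each gene's own, 1.06 for Mmp7, so a gene of wide spread could shift far and still count as unmoved. Timp3 was -0.67 with slide as a random block. Signs held in these 175 values for Mmp7 (0.44 to 1.79), Mmp9 (-1.59 to -0.57), Mmp14 (0.25 to 0.54), Mmp15 (-0.72 to -0.0061), Mmp28 (-0.92 to -0.41), Timp1 (0.39 to 0.56), Timp2 (0.11 to 0.49) and Timp4 (0.14 to 0.50). Other probes were tried there on all 6 arrays only. Without vehicle array 3 the other Mmp15 probes stood above 0, at 0.17 and 0.037. Within slide 2, 1 other Timp4 probe stood below 0, at -0.012. Under scaling to the median, where the median of all genes moved to 0.063, the groups lay apart for Mmp14 and Timp4 too. Mmp28, Mmp7, the dimmer Mmp15 probes and Mmp9 on phenylbutazone arrays 2 and 3 lie near the background, which limits their precision. Mmp7 could not be fitted where all 6 arrays had to be well above background.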
